A study of Mus musculus with 6 samples.

Results

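Regulatory T cells (Tregs) are the Foxp3-expressing CD4+ lymphocytes that hold immune responses in check. Their transcripts for the enzymes of glycolysis, the pentose phosphate pathway and the tricarboxylic acid (TCA) cycle were read here from 2 splenic sorts of C57BL/6 mice, sequenced as bulk RNA with 3 libraries each. RORγt+ Tregs were CD3+ CD4+ cells positive for a red Foxp3 reporter and for a green reporter of RORγt, the transcription factor of type 17 cells. CCR6+RORγt- Tregs carried the same Foxp3 reporter, were negative for the RORγt reporter and stained for the chemokine receptor CCR6. Both groups thus share the strain and both reporters, and CCR6 was a gate for the second sort only. Neither the labels nor the protocol tie a library to its own mouse or say whether spleens were pooled, so p-values reflect only how these libraries vary, which could be technical. The enzymes are a set of 42 genes chosen by symbol from a table of 15944 genes, and all 42 were in the table: 18 of glycolysis, 3 of the pyruvate dehydrogenase gate, 6 of the pentose phosphate pathway and 15 of the TCA cycle and its cytosolic isoforms. Every member was read in every library, the scarcest at a mean of 65.7 normalized counts, so no member depended on a filter for low values.

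Glycolysis splits glucose into pyruvate in the cytosol, and lactate dehydrogenase can turn that pyruvate into lactate and restore NAD+. The pentose phosphate pathway branches off at glucose 6-phosphate and gives NADPH and ribose, while pyruvate dehydrogenase passes pyruvate to the TCA cycle in the mitochondrion. Activated effector T cells are known for high glycolysis, whereas Tregs are known to rely more on mitochondrial oxidation, with glycolysis tied to their growth and migration. Transcript levels do not measure the flux through these pathways.

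The 6 columns summed to 11325902 to 11890770 normalized counts each, and the apparent value of 1 read puts the depth at about 9210000 to 14500000 reads. RORγt+ replicate 3 was the shallowest library and stood apart, with 1247 genes listed at 0 against 438 to 638 elsewhere and correlations of 0.932 to 0.938 to the other libraries, whose correlations reached 0.967. Treg and T cell markers, with Foxp3 and Cd3e among all 6 of 6 detected, summed to 42400 to 44300 in the RORγt+ libraries and 40400 to 42800 in the CCR6+RORγt- libraries. Single markers varied more than their sum: Ikzf2 (Helios, a Treg transcription factor) stood at 1435 normalized counts in RORγt+ replicate 3, while the remaining 5 libraries held 4784 to 7969. Other cells were also represented. B cell markers (6 of 6 detected) summed to 7130 to 10800 and 8300 to 10400, mostly from Ighm. Red cell and platelet markers (5 of 7) summed to 198 to 1220 and 75.7 to 6160, and the highest value came from CCR6+RORγt- replicate 2. Monocyte and macrophage markers (4 of 5) summed to 58.5 to 146 and 37.9 to 59.1, and γδ T cell markers (3 of 3) to 145 to 164 and 87.6 to 143. CD8, NK, dendritic and neutrophil markers summed to at most 183, and S100a9 was listed at 0 in all CCR6+RORγt- libraries. The part of these cells in the enzyme levels was not tested, and in bulk samples fewer cells of a type and less RNA per cell cannot be told apart.

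The comparison asked whether Tregs that express RORγt differ in these enzymes from Tregs that carry CCR6 without it. No enzyme passed the test: of 42 members, 0 were higher and 0 were lower at a Benjamini-Hochberg adjusted p under 0.05 in limma, where 0.564% of all genes were called, 0.32% higher and 0.245% lower. At an unadjusted p under 0.05 there was 1 member, Idh1, which is 2.38% of the members against 10.9% of all genes. Fold changes here are on the log2(normalized count + 1) scale, RORγt+ minus CCR6+RORγt-. They ran from −0.44 to 0.85, with a median of 0.10 against −0.01 over all genes. They were above 0 for 32 of the 42 (76.2%, against 48.8% of all genes), and for 23 of the 42, with a median of 0.01, without RORγt+ replicate 3. Without that library 45.2% of the members and 49.6% of all genes were below 0. The 95% intervals show how far the libraries bound a difference. For 40 of the 42 enzymes the interval lay inside a 2-fold change in either direction (8009 of all 15944 genes). For 20 it lay inside a 1.5-fold change (3500 of all genes). All genes include scarcer ones, with means down to 1.15 normalized counts. The members whose interval reached beyond a 2-fold change were Idh1, with an interval of 0.41 to 1.30, and Ldhb, with −1.17 to 0.29. The 3 values of one sort all lay above the 3 of the other for 7 members, which is 16.7% of them and close to the 18.1% of all genes. Of these, 6 were higher in RORγt+ Tregs (14.3% against 8.31% of all genes) and 1 was lower (2.38% against 9.81%).

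**Figure D1:**
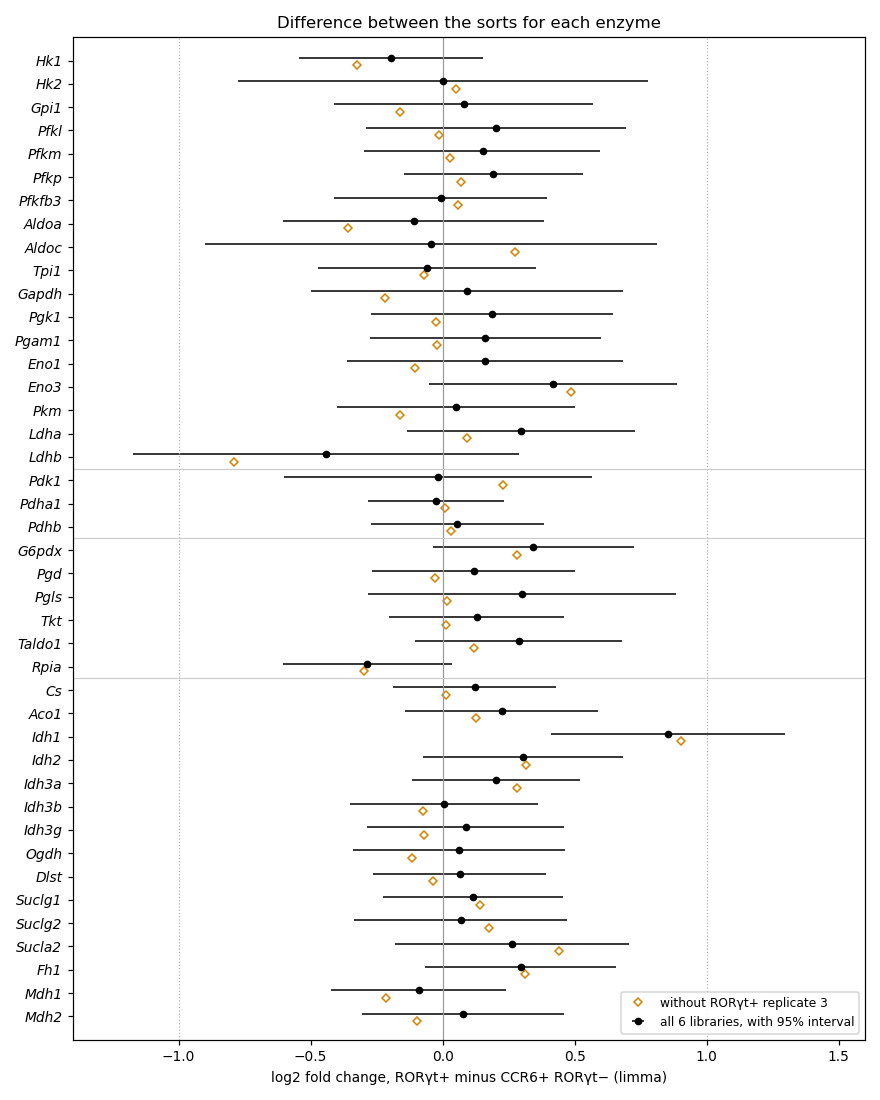
Log2 fold change of each enzyme (RORγt+ minus CCR6+RORγt-, 3 libraries each) with its 95% interval from limma in black, and the value without RORγt+ replicate 3 as orange diamonds; horizontal lines part glycolysis, the pyruvate gate, the pentose phosphate pathway and the TCA cycle, and dotted lines mark a 2-fold change. Only the interval of Idh1 lies wholly to one side of 0, and many glycolysis values move left of 0 without replicate 3.

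The enzyme that stood out by size was Idh1 (ENSMUSG00000025950, chr1:65158616-65186500, GRCm38), the cytosolic isocitrate dehydrogenase, which makes NADPH and 2-oxoglutarate outside the mitochondrion. Its values were 173, 163 and 152 normalized counts in RORγt+ replicates 1 to 3 and 85, 87.2 and 96.4 in CCR6+RORγt- replicates 1 to 3. All RORγt+ libraries lay above all the others, and the spread within each sort was small beside the gap. The means were 163 ± 10.8 against 89.5 ± 6.02 (SD, n = 3), a log2 fold change of 0.85 ± 0.19 (SE) or 1.81-fold. In limma its adjusted p was 0.141, so it did not pass over all genes, and it ranked 269 of 15944 by p. Leaving out 1 library at a time gave adjusted p between 0.0789 and 0.492. With array weights, which gave RORγt+ replicate 3 a weight of 0.199, the limma adjusted p was 0.0364, and with a replicate block it was 0.538. None of the 31-base windows of its transcripts occurs in another gene.

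The upstream sequence of Idh1 is shown because this gene had the largest fold change of the 42. It spans the 182 bases from 203 to 22 bases before the RefSeq start (GRCm38.p6, chr1:65186501-65186682, minus strand, written 5′ to 3′), the longest stretch of the 250 upstream bases that holds no annotated exon. The letters ACGTG and GCGTG, the core of the hypoxia response element that HIF-1 binds, were searched on both strands here and in the other promoters below, and hits are in capitals. None lies in the 250 bases before Idh1.
Idh1: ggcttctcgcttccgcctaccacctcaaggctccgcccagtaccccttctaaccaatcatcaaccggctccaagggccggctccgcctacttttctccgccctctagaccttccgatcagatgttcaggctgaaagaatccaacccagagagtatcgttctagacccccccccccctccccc

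Idh2, the mitochondrial enzyme that uses NADP+, also had no overlap between the sorts. Its values were 416, 359.9 and 379 in the RORγt+ libraries and 274, 354 and 309 in the CCR6+RORγt- libraries, and its log2 fold change of 0.30 ± 0.16 did not pass (limma adjusted p = 0.58). The gap of Idh2 was narrow: its lowest RORγt+ value and its highest CCR6+RORγt- value differed by a few counts. The log2 ratio of Idh1 to Idh2 was −1.26, −1.14 and −1.32 in RORγt+ Tregs and −1.69, −2.02 and −1.68 in CCR6+RORγt- Tregs. The ratio was therefore higher in every RORγt+ library, by 0.56 on average. Idh1 stayed the scarcer enzyme, at 0.06 to 0.325 times the level of Idh2 per kilobase of transcript over the 4 ways of setting transcript length that were tried. The 3 subunits of the NAD+-dependent mitochondrial enzyme were nearer to equal. Idh3a, the catalytic subunit, stood at 784, 718 and 634 against 597, 635 and 619 (log2 fold change 0.20), and Idh3b and Idh3g had values of 0.005 and 0.09.

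Among the other TCA cycle genes, fumarate hydratase Fh1 and the cytosolic aconitase Aco1, which doubles as an iron-responsive RNA-binding protein, had sorts without overlap. Fh1 stood at 438, 461 and 434 in RORγt+ Tregs and 403, 377 and 312 in CCR6+RORγt- Tregs (0.29 ± 0.15, limma adjusted p = 0.575). Aco1 stood at 414.2, 427.8 and 517.1 and 391.5, 414.0 and 354.6 (0.22 ± 0.16, limma adjusted p = 0.694), with only a fraction of a count between the nearest libraries of the sorts. Neither passed the test. Citrate synthase Cs, which starts the cycle, was 2133, 2089 and 2655 against 2160.4, 2114 and 2013, and the 2-oxoglutarate dehydrogenase subunit Ogdh was 2442, 2580.4 and 3642 against 2913, 2707 and 2554. In both, RORγt+ replicate 3 was the high value and the other 5 libraries lay together. In this class 14 of 15 fold changes were above 0, where 48.8% of all genes were. Without RORγt+ replicate 3 only 9 of 15 were above 0, and 40% were below 0, against 49.6% of all genes. The class median was 0.11, and 0.13 without that library.

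Succinyl-CoA synthetase exists as 2 enzymes that share Suclg1 and differ in the partner: Sucla2 makes ATP and Suclg2 makes GTP. Sucla2 was 519.7, 575 and 377 in the RORγt+ libraries and 382, 393 and 433 in the CCR6+RORγt- libraries. Its sorts overlapped because RORγt+ replicate 3 was the lowest of the 6. Suclg2 was 533, 527 and 423 and 442, 552 and 423, and 20.7% of its windows occur in other genes. The log2 ratio of Sucla2 to Suclg2 ranged from −0.17 to 0.12 in RORγt+ and from −0.49 to 0.03 in CCR6+RORγt- Tregs, with overlap. Malate dehydrogenase has a cytosolic form, Mdh1, and a mitochondrial form, Mdh2. Mdh1 was 1360.4, 1411 and 1796 against 1548, 1655 and 1623, and Mdh2 was 2069.6, 2084 and 2979 against 2220.2, 2229 and 2208. Each overlapped between the sorts, while their log2 ratio did not, at −0.61, −0.56 and −0.73 against −0.52, −0.43 and −0.44. Mdh1 was thus slightly lower relative to Mdh2 in every RORγt+ library, a difference of 0.17. Dlst, the second subunit of the 2-oxoglutarate dehydrogenase complex, and Suclg1 had log2 fold changes of 0.07 and 0.11.

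**Figure D2:**
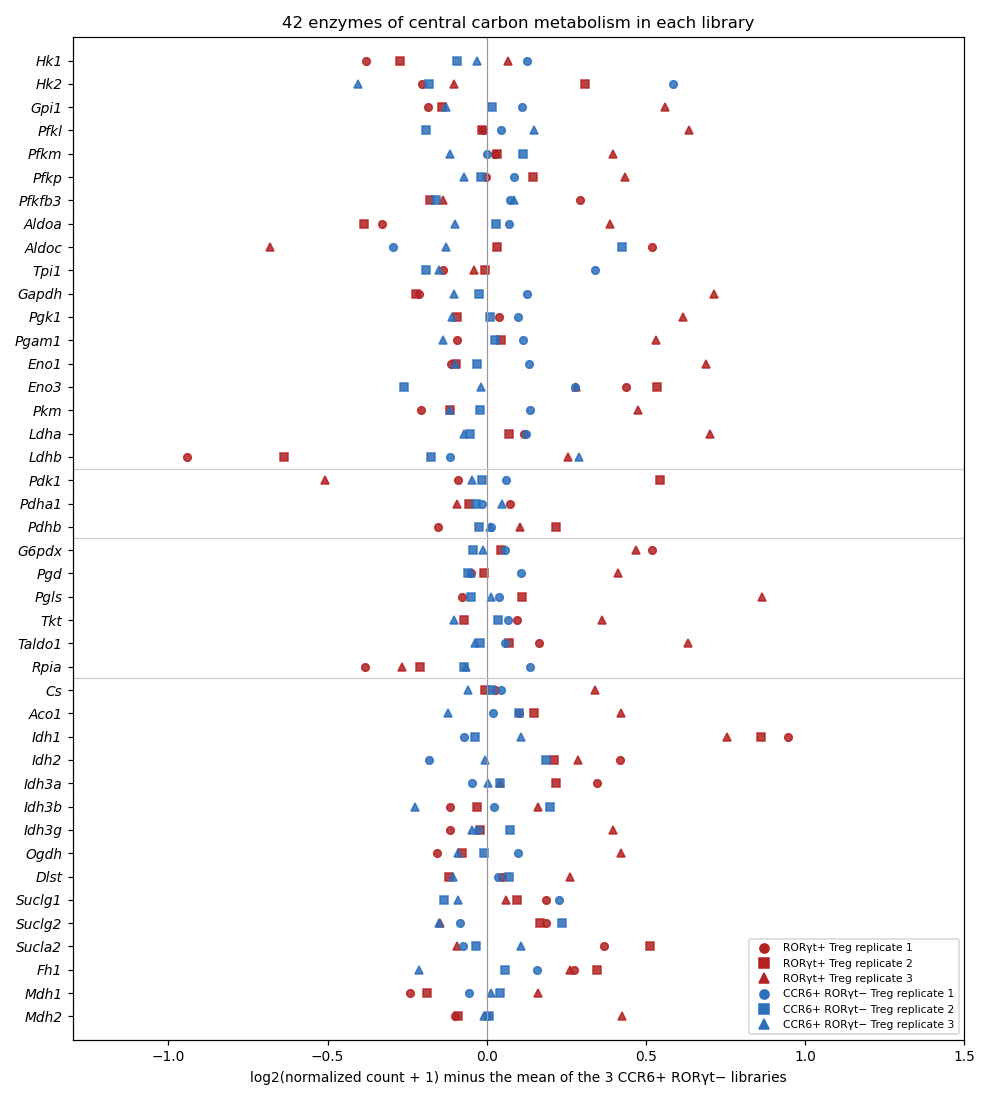
Each enzyme's log2(normalized count + 1) in the 3 RORγt+ libraries (red) and the 3 CCR6+RORγt- libraries (blue), minus the mean of the CCR6+RORγt- libraries; symbols mark replicates 1 (circle), 2 (square) and 3 (triangle). Idh1 has all red points to the right of all blue points, and the red triangle, RORγt+ replicate 3, lies far right of the other libraries for Gapdh, Eno1, Ldha, Pgk1 and other glycolysis genes.

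Per kilobase of the median GENCODE basic transcript, the most abundant enzymes were those of glycolysis. Gapdh, which oxidises glyceraldehyde 3-phosphate, averaged 4180 ± 1680 normalized counts per kilobase in RORγt+ and 3740 ± 304 in CCR6+RORγt- Tregs (SD, n = 3). Pkm, the pyruvate kinase of T cells, followed at 3670 ± 995 and 3470 ± 311. Ldha was at 3260 ± 841 and 2600 ± 199, Eno1 at 2740 ± 933 and 2370 ± 199, and Aldoa at 2440 ± 776 and 2550 ± 154. The spreads between libraries overlapped for many of these neighbours, but the genes were read in the same libraries. In every library Pkm lay above Ldha, and Ldha above Eno1. Gapdh lay above Pkm in every CCR6+RORγt- library, while both were at 3200 in RORγt+ replicate 2. Eno1 lay above Aldoa in every RORγt+ library and below it in every CCR6+RORγt- library. At the low end Hk2 was at 23.2 ± 4.59 and 23.9 ± 9.27 and Aldoc at 46.2 ± 18.4 and 46.0 ± 12.8. Idh1 was at 71.3 ± 4.75 and 39.2 ± 2.64 and Pfkm at 66.3 ± 10.2 and 59.4 ± 4.7, so Idh1 lay below Pfkm in CCR6+RORγt- Tregs, while in RORγt+ Tregs they did not differ beyond their spread. This order depends on the transcript length taken for each gene.

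Hk1 gave most of the hexokinase counts, the first step of glycolysis. Its values were 2058, 2218 and 2803 in RORγt+ Tregs and 2922, 2507 and 2620.3 in CCR6+RORγt- Tregs, and those of Hk2, the isoenzyme known to be induced in activated T cells, were 55.3, 79.2 and 59.4 and 96.3, 56.2 and 47.9. Both overlapped between the sorts, and per kilobase Hk1 exceeded Hk2 by 27.5-fold to 199-fold over the 4 transcript lengths. The log2 fold change of Hk1 was −0.20 ± 0.15 (limma adjusted p = 0.726). Without RORγt+ replicate 3, its highest RORγt+ library, that value was −0.33 (limma adjusted p = 0.187) and the sorts no longer overlapped. The log2 ratio of Hk1 to Hk2 averaged 5.20 ± 0.38 and 5.39 ± 0.43, within the spread of the libraries. Gpi1, which isomerises glucose 6-phosphate, was at 4519, 4665 and 7584 against 5552, 5198 and 4702.

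Phosphofructokinase commits sugar to glycolysis, and its platelet-type subunit Pfkp had the most counts of the 3 subunits. Pfkp was 1679, 1862 and 2275 in the RORγt+ libraries and 1788, 1664 and 1603 in the CCR6+RORγt- libraries. The liver-type Pfkl was 688, 686 and 1078 and 715, 608 and 769, and the muscle-type Pfkm 169.7, 170.5 and 219.8 and 167, 180.5 and 154. Each subunit reached its highest value in RORγt+ replicate 3, and the ratio of Pfkp to Pfkl hardly differed, at log2 means of 1.27 ± 0.18 and 1.28 ± 0.20. Per kilobase Pfkp exceeded Pfkl by 1.04-fold to 3.36-fold, so the length chosen decides how far apart they stand. Pfkfb3, which makes the activator fructose 2,6-bisphosphate, was 795, 573 and 589 against 682, 582 and 689, with a log2 fold change of −0.008. Among aldolases, Aldoa was 3064, 2949 and 5034 against 4046, 3928 and 3596 and the brain-type Aldoc 109.9, 78.2 and 47.4 against 62.1, 103 and 69.8. Aldoa exceeded Aldoc by 55.3-fold to 105-fold per kilobase. Triosephosphate isomerase Tpi1 had a log2 fold change of −0.06.

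Lower glycolysis showed 1 gene without overlap, the muscle-type enolase Eno3. It stood at 231.6, 247.9 and 207.5 in RORγt+ Tregs and 207.1, 142.4 and 168.6 in CCR6+RORγt- Tregs, where the nearest libraries of the sorts were less than a count apart. Its log2 fold change was 0.42 ± 0.20 (limma adjusted p = 0.527). Eno1, the main enolase, was 4167, 4211 and 7263 against 4935, 4407 and 4199, and 28.5% of its windows occur in other genes, mostly Eno1b, a near copy. Eno1 exceeded Eno3 by 7.78-fold to 21.0-fold per kilobase. Pkm was 6126, 6525 and 9826 against 7769.7, 6959 and 6520.3, with RORγt+ replicate 3 above all other libraries and replicates 1 and 2 below or within the other sort. Pgam1, which shifts the phosphate of phosphoglycerate, and Pgk1, which makes ATP from 1,3-bisphosphoglycerate, had log2 fold changes of 0.16 and 0.19. Windows that occur in other annotated genes made up 54.7% for Pgk1, 37.1% for Pgam1, 34.7% for Pkm, 28.1% for Gapdh, 21.6% for Gpi1 and 17.0% for Aldoa. No source used here tells how reads were shared among such copies, so these levels are uncertain.

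Lactate dehydrogenase is a tetramer of A and B chains, and the A chain favours the step from pyruvate to lactate. Ldha was 4476, 4327 and 6712 in RORγt+ Tregs and 4496, 3977 and 3925 in CCR6+RORγt- Tregs (0.30 ± 0.18, limma adjusted p = 0.65). Ldhb was 247, 305 and 567 and 438, 421 and 582 (−0.44 ± 0.31, limma adjusted p = 0.699). Neither gene passed, and both overlapped between the sorts. Their log2 ratio within a library did not overlap: it was 4.18, 3.83 and 3.56 in RORγt+ Tregs and 3.36, 3.24 and 2.75 in CCR6+RORγt- Tregs. The means of 3.86 ± 0.31 and 3.12 ± 0.32 differed by 0.74, and the ratio was above that of every CCR6+RORγt- library in 3 of 3 RORγt+ libraries. It was 1 of 8 isoenzyme ratios read, of which Ldha to Ldhb, Idh1 to Idh2 and Mdh1 to Mdh2 had no overlap. These ratios were not tested, and no background over other gene pairs was computed. Ldhb shares 33.0% of its windows with other genes and Ldha 19.6%.

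**Figure D3:**
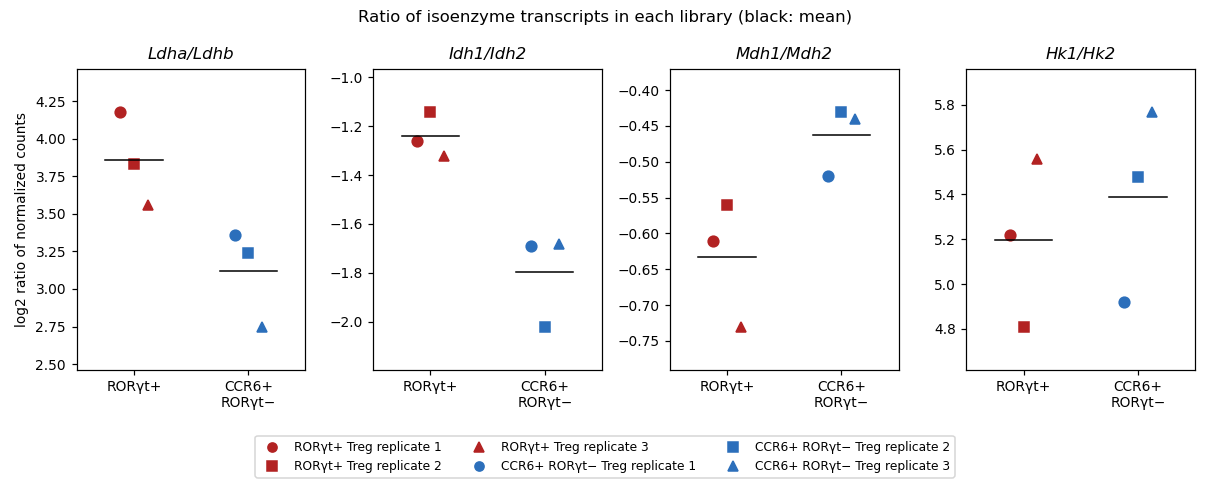
Log2 ratio of normalized counts of isoenzyme pairs in each library (red RORγt+, blue CCR6+RORγt-, black line the mean of 3; each panel has its own axis). The sorts do not overlap for Ldha/Ldhb, Idh1/Idh2 and Mdh1/Mdh2, and overlap for Hk1/Hk2.

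Many glycolysis genes differed more within the RORγt+ sort than between the sorts. RORγt+ replicate 3 had the highest value of all 6 libraries for 11 of 18 glycolysis genes and for 22 of 42 members, or 52.4%, against 27.9% of all genes. Gapdh was 4101, 4072 and 7789.7 in RORγt+ replicates 1 to 3 and 5186, 4678 and 4426 in the CCR6+RORγt- libraries, and Pgk1 was 1801, 1644 and 2689.7 and 1877, 1768 and 1624. For these genes replicates 1 and 2 lay beside the CCR6+RORγt- libraries and replicate 3 well above them. Against the mean of the other RORγt+ libraries, replicate 3 deviated by 1.05 for Ldhb, 0.93 for Gapdh, 0.79 for Eno1, 0.74 for Aldoa, 0.72 for Gpi1 and 0.61 for Ldha on the log2 scale. The median deviation was 0.58 over the glycolysis genes, 0.40 over the pentose phosphate genes and 0.24 over the TCA cycle genes, against −0.03 over all genes. Glycolysis genes that did not share it were Tpi1 (0.03), Hk2 (−0.15), Pfkfb3 (−0.20), Eno3 (−0.21) and Aldoc (−0.95). The scarcer isoenzymes were thus found on both sides, with Ldhb at the top and Aldoc at the bottom.

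As a share of all normalized counts, the 18 glycolysis genes took 0.312%, 0.319% and 0.494% in RORγt+ replicates 1 to 3 and 0.370%, 0.336% and 0.311% in CCR6+RORγt- replicates 1 to 3. The third RORγt+ library was the highest and the other RORγt+ libraries lay within the range of, or next to, the other sort. The means were 0.375% ± 0.103 and 0.339% ± 0.0297 (SD, n = 3), and the RORγt+ mean was 0.316% without replicate 3, below the other sort instead of above it. TCA cycle genes took 0.151% ± 0.0178 and 0.139% ± 0.0083, and pentose phosphate genes 0.0642% ± 0.0102 and 0.0559% ± 0.00359. Without replicate 3 the limma fold change was below 0 for 11 of 18 glycolysis genes (61.1%, against 49.6% of all genes). Among them were Gapdh (−0.22), Aldoa (−0.36), Pkm (−0.16), Gpi1 (−0.16) and Ldhb (−0.79). The class median moved from 0.09 to −0.03. No member passed then either: limma called 0 of 42 in either direction and 1.09% of all genes (0.533% higher, 0.558% lower). The sorts then did not overlap for 16 of 42 members, 8 in each direction (38.1%, against 36.9% of all genes, 18.5% higher and 18.4% lower).

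**Figure D4:**
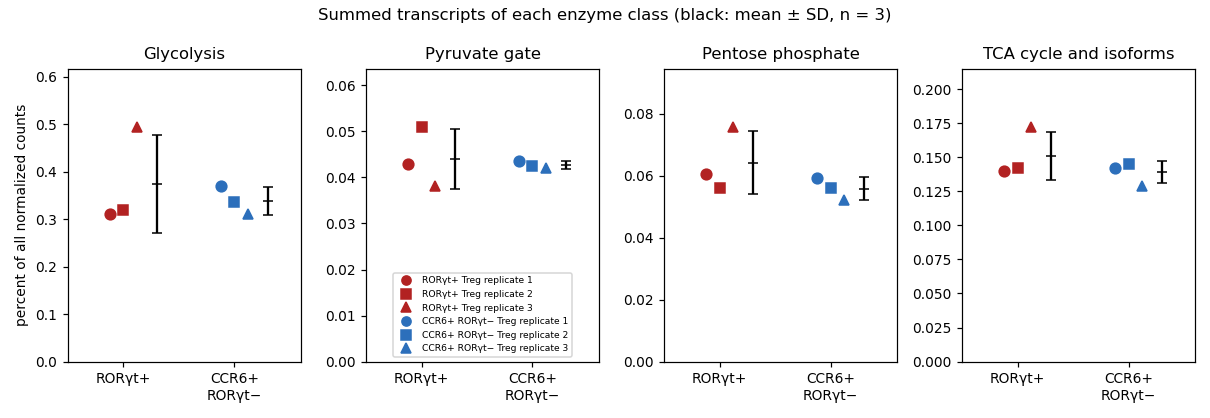
Summed normalized counts of each enzyme class as a percent of all normalized counts in each library (y axes start at 0; red RORγt+, blue CCR6+RORγt-; black bars are mean ± SD, n = 3). RORγt+ replicate 3 (red triangle) is the highest library for glycolysis, the pentose phosphate pathway and the TCA cycle, and the lowest for the pyruvate gate.

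Sequence composition moved with this deviation. Across 10308 genes with a mean of at least 50, the deviation of RORγt+ replicate 3 had a Pearson correlation of 0.51 with the GC content of the transcript and −0.21 with its log2 length, and across the 42 members 0.45 and −0.12. Genes within a library share its depth and preparation, so these values are descriptions. Median GC content was 54.0% for the glycolysis genes, 52.9% for all members and 50.4% for the 10308 genes. With GC content and length regressed out of each library, the median deviation was 0.42 for glycolysis genes and 0.11 for all genes. The TCA cycle median was 0.27 after the correction, and that of the pyruvate gate moved from −0.10 to 0.26. Replicate 3 was above both other RORγt+ libraries for 13 of the 18 glycolysis genes (72.2%) before and after the correction, where the share of all genes was 39.7% before and 47.2% after. Ighm was highest in the same library, at 9679 against 6051 to 9019 normalized counts, as was Cd3e, at 8913 against 5409 to 7523. Their part in the deviation was not tested.

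**Figure D5:**
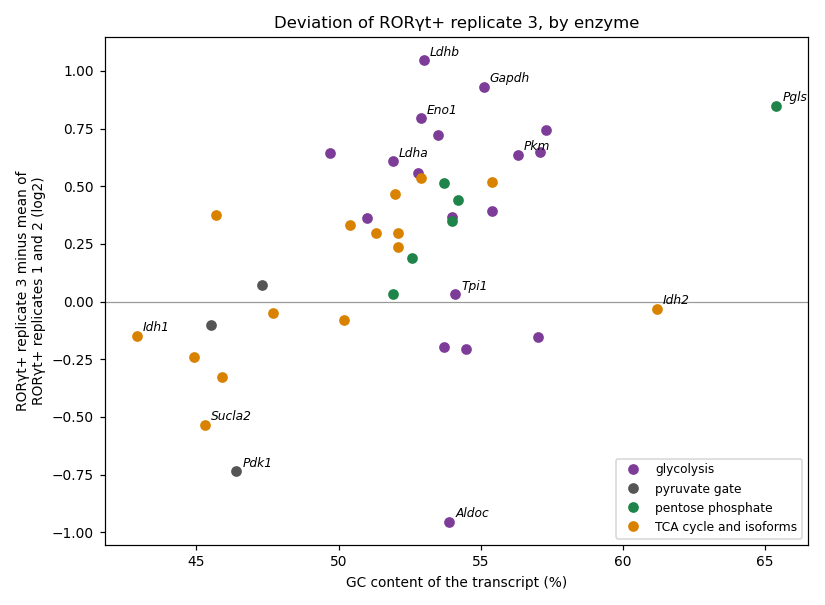
For each enzyme, the deviation of RORγt+ replicate 3 from the mean of RORγt+ replicates 1 and 2 (log2, y axis) against the GC content of its transcript (percent, x axis), coloured by class. Most glycolysis genes lie above 0, with Aldoc the lowest of all 42 and Ldhb the highest, and low-GC genes such as Pdk1 and Sucla2 lie below 0.

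Glycolysis promoters were read because Gapdh, Pgk1, Eno1 and Ldha deviated together in that library. The ratio of Ldha to Ldhb, which did not overlap between the sorts, was the other reason. The genes printed below were thus picked from these values. RefSeq (GRCm38.p6) gave promoters for 41 of the 42 members, and the 250 bases before the most upstream start were searched. Some windows held annotated exon, up to all 250 bases for G6pdx and Mdh1. By GENCODE, the windows of Ldha and Gapdh lay inside the annotated gene. GCGTG lay in 23 of 41 (56.1%) against 44.2% of the 10176 promoters of genes in the table and 28.3% of all 27025 promoters of that length, 1 per gene. ACGTG lay in 10 of 41 (24.4%), close to the 21.4% of table genes, against 16.5% of all promoters. Either core was found in 29 of 41 members (70.7%), in 38.6% of all promoters and in 55.4% of those of genes in the table. Both cores hold the letters CG, and these shares were not matched for the GC content of the promoters. Among the 18 glycolysis promoters alone, GCGTG lay in 8 (44.4%), near the 44.2% of table genes, and ACGTG in 6 (33.3%). Of those 6 genes, Ldha, Pgk1, Pgam1 and Pfkm were higher in RORγt+ replicate 3 than in the mean of replicates 1 and 2. The others, Hk2 (−0.15) and Pfkfb3 (−0.20), were lower there. Any link of a match to the deviation was not tested. Either core lay in 13 of those 18 (72.2%). GCGTG lay in all 6 pentose phosphate promoters, in all 3 of the pyruvate gate and in 6 of 14 of the TCA cycle (42.9%). The E-box CACGTG, bound by MYC with MAX and by related factors, holds ACGTG on both strands and was found in Ldha and Pfkm only among the members (4.88%, against 8.11% of table genes and 6.04% of all promoters). A match is a string of letters and not a binding site. The windows printed below hold no annotated exon. They are Ldha (chr7:46845554-46845803, plus strand), Ldhb (chr6:142507958-142508207, minus strand), Pgk1 (chrX:106186850-106187099, plus strand), Eno1 (chr4:150236458-150236707, plus strand) and Gapdh (chr6:125165774-125166023, minus strand), each 5′ to 3′ on GRCm38.p6 with both cores and their reverse complements in capitals.
Ldha: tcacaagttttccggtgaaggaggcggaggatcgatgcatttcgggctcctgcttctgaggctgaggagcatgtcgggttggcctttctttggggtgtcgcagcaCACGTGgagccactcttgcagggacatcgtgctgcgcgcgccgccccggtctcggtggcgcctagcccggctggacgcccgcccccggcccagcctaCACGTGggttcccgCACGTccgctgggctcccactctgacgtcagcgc
Ldhb: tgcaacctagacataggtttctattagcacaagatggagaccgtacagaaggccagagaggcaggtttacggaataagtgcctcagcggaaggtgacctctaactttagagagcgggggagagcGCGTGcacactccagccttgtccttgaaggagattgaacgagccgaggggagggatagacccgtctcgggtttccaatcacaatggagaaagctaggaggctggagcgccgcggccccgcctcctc
Pgk1: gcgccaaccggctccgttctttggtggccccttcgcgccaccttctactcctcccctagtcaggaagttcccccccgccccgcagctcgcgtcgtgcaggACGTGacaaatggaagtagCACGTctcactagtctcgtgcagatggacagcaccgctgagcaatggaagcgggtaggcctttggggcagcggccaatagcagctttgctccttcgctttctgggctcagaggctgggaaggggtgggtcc
Eno1: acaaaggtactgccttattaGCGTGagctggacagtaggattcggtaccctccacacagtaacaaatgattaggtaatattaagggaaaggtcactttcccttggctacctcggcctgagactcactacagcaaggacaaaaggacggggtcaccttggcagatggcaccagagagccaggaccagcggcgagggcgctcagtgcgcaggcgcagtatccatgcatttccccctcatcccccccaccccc
Gapdh: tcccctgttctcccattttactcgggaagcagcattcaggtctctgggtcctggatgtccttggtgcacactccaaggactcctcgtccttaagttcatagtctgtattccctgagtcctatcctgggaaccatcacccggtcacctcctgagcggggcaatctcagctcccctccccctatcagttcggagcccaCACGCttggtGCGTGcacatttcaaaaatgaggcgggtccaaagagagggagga
Ldha held 5 ACGTG matches over both strands, 4 of them in its 2 E-boxes, Pgk1 held 2, and Ldhb, Eno1 and Gapdh held 1, 1 and 2 GCGTG matches and no ACGTG.

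Pyruvate dehydrogenase links glycolysis to the TCA cycle, and Pdk1 is a kinase that switches it off. Pdk1 was 1583, 2459 and 1185 in RORγt+ Tregs and 1758, 1668 and 1631 in CCR6+RORγt- Tregs. RORγt+ replicate 2 was the highest and replicate 3 the lowest of all 6, so the RORγt+ libraries enclosed the others (log2 fold change −0.02 ± 0.25, limma adjusted p = 0.989). Of the enzyme's own subunits, Pdha1 was close in all 6 libraries and Pdhb varied more. Pdha1 was 2639, 2414 and 2353 against 2487, 2452 and 2593, and its interval ran from −0.28 to 0.23. Pdhb was 688, 889 and 823 against 773, 753 and 770, with a log2 fold change of 0.06.

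In the pentose phosphate pathway the oxidative entry enzyme G6pdx, which makes NADPH, was 922, 663 and 891 in RORγt+ Tregs and 669, 624 and 638 in CCR6+RORγt- Tregs. RORγt+ replicates 1 and 3 lay above all other libraries while replicate 2 lay among them (0.34 ± 0.16, limma adjusted p = 0.514). Pgls and Pgd, the following oxidative steps, had log2 fold changes of 0.30 and 0.12, and 0.02 and −0.03 without RORγt+ replicate 3. The non-oxidative branch gave the pathway's genes without overlap, in opposite directions. Taldo1, a transaldolase that returns sugars to glycolysis, was 1433, 1342 and 1983 against 1331, 1259.8 and 1248 (0.29 ± 0.17, limma adjusted p = 0.626), and 0.12 without RORγt+ replicate 3. Rpia, which makes ribose 5-phosphate for nucleotides, was 484, 547 and 526 against 695, 602 and 604 and was the only member lower in every RORγt+ library. Its log2 fold change was −0.29 ± 0.14, and −0.30 without RORγt+ replicate 3 (limma adjusted p = 0.523 and 0.288). Tkt, the transketolase that works beside Taldo1, had a value of 0.13.

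A wider list of 91 symbols of transporters, further enzymes and regulators of central carbon metabolism was read from the same fit, and 73 were analysed. None was called higher or lower in limma, and 7 (9.59%, against 10.9% of all genes) had an unadjusted p under 0.05. The median log2 fold change was 0.01. The sorts did not overlap for 15 of the 73 (20.5%), 9 higher (12.3%) and 6 lower (8.22%), near the 18.1%, 8.31% and 9.81% of all genes. Among them was Glud1, which turns glutamate into 2-oxoglutarate for the TCA cycle, at 3524, 3512 and 3598 in RORγt+ and 2519, 2643 and 2553 in CCR6+RORγt- Tregs. Its log2 fold change was 0.46 ± 0.10 (limma adjusted p = 0.138), and its replicates within each sort lay close together. The limma adjusted p was 0.0351 with array weights, 0.595 with a replicate block and 0.0619 to 0.508 with 1 library left out.

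Others without overlap spanned both directions. Pfkfb4, a relative of Pfkfb3, was 46.5, 32.7 and 47.6 against 162, 55.9 and 90.8 (−1.15 ± 0.41, limma adjusted p = 0.37), with CCR6+RORγt- replicate 1 well above the rest. The lactate exporter Slc16a3 was 32.6, 57.5 and 48.7 against 85, 80.5 and 74.1, lower in each RORγt+ library (−0.81, limma adjusted p = 0.368). The HIF prolyl hydroxylase Egln3, itself a HIF target, was 94.5, 127 and 172 against 56.3, 80.7 and 65.5 and so higher in each RORγt+ library (0.92, limma adjusted p = 0.304). The glycerol phosphate shuttle enzyme Gpd2 was 233, 277 and 703 against 187, 197 and 199, with RORγt+ replicate 3 far above the rest (0.88 with it and 0.39 without). Adpgk, an ADP-dependent glucokinase, was 887, 863 and 1102 against 719, 713 and 651, with a log2 fold change of 0.45. Eno1b, the near copy of Eno1, was 1258, 1133 and 1535 against 1023, 963 and 912 (0.43). Of the windows of Eno1, 27.7% occur in Eno1b, so the level of Eno1b is uncertain as well. Esrra, a nuclear receptor of mitochondrial genes, was 227, 214 and 315 against 189.6, 181 and 189 (0.41). None of these passed the test. The glucose transporters Slc2a1 and Slc2a3 and the factor Hif1a fall outside the naming rule and were picked once their values were known. Their log2 fold changes were 0.005, −0.05 and −0.32, and the sorts overlapped for each.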

How the data were processed

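RNA of 6 libraries of sorted splenic Tregs, 3 per sort, was analysed from 1 deposited table. Its values are signal in the form of normalized counts, which the authors deposited to 2 decimals. The submitters' processing notes list Salmon 1.2.0, DESeq2 and GRCm38 and say nothing of their roles. Of the low values (at most 20 reads), 51.6% to 69.9% lay within 0.1 of a whole multiple of 1 read, so reads were not recovered and no count-based test was run. Values were fitted as log2(value + 1) over all 15944 genes with limma 3.58.1 in R 4.3.3 (group as the only term, trended empirical Bayes variances). Tests were two-sided, calls were made at a Benjamini-Hochberg adjusted p under 0.05, no filter on low values was used, and residual and prior degrees of freedom were 4 and 3.43. The fit was tested on simulated data. Intervals are 95% moderated intervals, not adjusted. Positions, lengths and shared 31-base windows came from GENCODE M21 (GRCm38), which named 15851 of the 15944 identifiers. Length per gene was the median protein-coding, median basic, longest or exon-union length. The members and lists were chosen with earlier results of these data known. Values in every library were given, by a rule, for members without overlap, isoenzyme pairs, rate-setting enzymes and the 3 largest changes in each direction, and, of the wider list, for the 8 with the largest absolute log2 fold change among genes without overlap and with a mean of at least 50. Alternatives were other pseudocounts, filters, scalings, weights and variances, a replicate block, each library left out and, chosen after seeing the data, a correction for GC content and length and the basic transcript length.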

Additional observations from a re-analysis of the deposited data

How the results depend on the processing

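Under the 17 alternatives, 20 of the 42 enzymes kept the direction of their log2 fold change and 22 turned in at least 1, 17 of them without RORγt+ replicate 3. The cause was not tested. Over all genes, limma called 90 (1741 at an unadjusted p under 0.05), 358 with array weights, 1 with a replicate block and 4 to 174 with 1 library left out (4 without RORγt+ replicate 1, 4 without replicate 2, 174 without replicate 3, and 8, 10 and 7 without CCR6+RORγt- replicates 1, 2 and 3). The other alternatives gave 84 to 135. Of the members, limma called 0 in the main analysis and in 16 alternatives and 1, Idh1, with array weights. At an unadjusted p under 0.05 there was 1, and 8 with array weights or without RORγt+ replicate 3, which is 19% of the members, where 17.1% and 17.7% of all genes had such a p. Of the wider list it called 0, and 1, Glud1, with array weights. Libraries with the same replicate number had correlated deviations of −0.11, −0.02 and −0.18, so the block rests on a shared number alone. Members without overlap numbered 7, and 5 to 9 under other scalings. Log2 fold changes that turned were Gpi1 −0.11, Pfkfb3 0.043, Aldoc 0.15, Gapdh −0.15, Eno1 −0.042, Pkm −0.11, Pdk1 0.20, Idh3b −0.069, Idh3g −0.041, Ogdh −0.072, Dlst −0.024 and Mdh2 −0.061 with array weights, Hk2 −0.001 with pseudocount 5, Idh3b −0.013 with quantile normalization, Pfkfb3 0.021, Pdk1 0.012 and Pdha1 0.003 with equal column totals, Hk2 −0.019 and Idh3b −0.015 with equal upper quartiles, and Hk2 −0.043, Tpi1 0.023 and Pdk1 0.035 with the correction for GC content and length. With 1 library left out, the ranges of those that turned were Hk2 −0.20 to 0.29, Gpi1 −0.16 to 0.21, Pfkl −0.014 to 0.31, Pfkfb3 −0.16 to 0.077, Aldoa −0.36 to 0.028, Aldoc −0.32 to 0.28, Tpi1 −0.16 to 0.11, Gapdh −0.22 to 0.25, Pgk1 −0.027 to 0.33, Pgam1 −0.023 to 0.29, Eno1 −0.10 to 0.30, Pkm −0.16 to 0.18, Pdk1 −0.30 to 0.23, Pdha1 −0.075 to 0.008, Pdhb −0.024 to 0.16, Pgd −0.029 to 0.20, Idh3b −0.11 to 0.10, Idh3g −0.069 to 0.19, Ogdh −0.12 to 0.17, Dlst −0.035 to 0.16, Suclg2 −0.007 to 0.19 and Mdh2 −0.096 to 0.17. Of the 8 isoenzyme pairs, each kept the same member ahead per kilobase under all 4 transcript lengths. Depth was known only approximately.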
